A study of Homo sapiens with 8 samples.

Results

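The endoplasmic reticulum (ER) chaperones, the enzymes of ER-associated degradation (ERAD) and the sensors and factors of the unfolded protein response (UPR) were followed here through 36 genes, taken by symbol from the 58302 genes quantified in each library. They comprise 12 chaperones and cofactors, 6 enzymes of disulphide bond formation, 10 ERAD genes, 5 sensors and transcription factors and 3 genes of the translocon and transport coat. A total of 35 passed the count filter and were tested. The remaining gene, DERL3, held between 0 and 17 expected counts per library.

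Proteins that enter the secretory pathway fold in the ER with the help of chaperones such as BiP (HSPA5) and of disulphide isomerases, and proteins that fail to fold are drawn back through the ER membrane by ERAD and broken down by the proteasome. When unfolded proteins build up, the membrane sensors IRE1 (ERN1), PERK (EIF2AK3) and ATF6 start the UPR: IRE1 splices XBP1 mRNA into the template of an active transcription factor, ATF6 is cut to release one, and PERK slows translation while favouring ATF4. XBP1 and ATF6 act on the promoters of chaperone and ERAD genes, and secretory and tumour cells are known to lean on this response.

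The cells were A549, an established human lung adenocarcinoma line with mutant KEAP1, and the study looked for ways in which cells resist TP-0903. This compound is a small molecule that inhibits AXL, a receptor tyrosine kinase. The 8 RNA sequencing libraries formed 4 groups of 2: cells with a short hairpin RNA against AXL (AXL shRNA, P15 and P3), cells with a control shRNA (P15 and P3), cells given 40 nM TP-0903 (P17 and P4) and control cells (P17 and P4). The sources used here do not give the meaning of the P number, the hairpin sequences, whether each hairpin line was a clone or a pool, the length of treatment or what the control cells received. All groups shared the line, F12K medium with serum and the column extraction, and the libraries are called biological replicates. With 2 libraries a group and no statement of separate cultures, p-values measure the spread between these libraries. Paired values below are in the order P15 and P3, or P17 and P4.

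Library totals ran from 30067011 to 44217023 expected counts, and 48.1% to 53.9% of genes differed between the libraries of a group by more than counting error. In counts per library total scaled by TMM (CPM), AXL itself had 55.4 and 63 CPM with AXL shRNA, against 85.1 and 139 CPM with control shRNA (log2 fold change -0.92, edgeR adjusted p = 0.12, or 0.000858 with the P number as a replicate block), without overlap. In the drug arm AXL had 279.6 and 153 CPM with TP-0903, against 216 and 105 CPM in control cells (edgeR adjusted p = 0.544, or 0.0354 with the block). The keratins KRT8 and KRT18 were abundant in every library, and the 7 markers set for A549 summed to 25204 to 28161 TPM with AXL shRNA, against 12429 to 13971 TPM with control shRNA. The 7 fibroblast markers summed to 27.6 to 49.6 TPM with AXL shRNA and 11.8 to 14.1 TPM with control shRNA, and to 11.9 to 18.6 TPM with TP-0903 and 15.6 to 16.1 TPM in control cells. COL3A1 had 29.9 and 65.4 CPM with AXL shRNA, against 2.03 and 2.84 CPM with control shRNA, and COL1A2 and DCN stayed at or below 0.0906 CPM in each library. The 4 blood cell markers summed to 4.43 to 6.27 TPM with AXL shRNA and to at most 1.0 TPM in any other library, with PTPRC at or below 0.0617 CPM in each library. Of these, 2 had enough counts to test, and both were called higher with AXL shRNA (log2 fold changes 2.97 and 7.63). Of 5 tested fibroblast markers 3 were called higher and none lower, and of 7 A549 markers 4 were higher and none lower (edgeR, adjusted p under 0.05). Over all genes 18.5% were called higher. The part of these markers in the results that follow was not tested.

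Known UPR elements were looked up first in the promoters of these genes, because the letters that XBP1 and ATF6 recognise mark the genes that the response is known to drive. RefSeq windows on GRCh38.p14, from 250 bases before to 50 bases after a start, were found for 32 of the 36 genes. ERSE, the ER stress element, was searched as CCAAT and CCACG held apart by 9 bases, and ERSE-II as ATTGG and CCACG held apart by 1 base, on both strands. ERSE stood in 8 of the 32 genes (HSPA5, HSP90B1, CALR, CANX, CRELD2, PDIA6, ERO1B and XBP1) and in 25 of all 27305 genes with a window (0.0916%). ERSE-II stood in 3 of the 32 (HYOU1, SDF2L1 and HERPUD1) and in 19 of all genes (0.0696%). The UPR element letters TGACGTG stood in 3 of the 32 (HYOU1, where they overlap an ERSE-II, DNAJC10 and SEC61A1) and in 2.40% of all genes, and the amino acid response letters TGATGNAA in 2 (HERPUD1 and CREB3L2) and in 4.46%. The 36 genes were chosen as genes of this pathway, so a share above that of all genes is no separate result. A match is a description of letters and does not show binding. The whole windows of HSPA5, the chaperone BiP that holds the sensors inactive (chr9:125241294-125241593, minus strand), of XBP1, the factor that acts on such letters (chr22:28800520-28800819, minus strand), and of HERPUD1, an ERAD scaffold (chr16:56931892-56932191, plus strand), follow with the element in capitals.
HSPA5 promoter: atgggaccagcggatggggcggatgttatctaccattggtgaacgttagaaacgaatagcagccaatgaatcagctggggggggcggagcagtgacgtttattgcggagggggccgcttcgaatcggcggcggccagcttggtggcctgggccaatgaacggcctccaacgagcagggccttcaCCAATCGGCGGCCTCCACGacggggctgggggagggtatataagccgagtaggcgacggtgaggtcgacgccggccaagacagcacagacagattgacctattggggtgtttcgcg
XBP1 promoter: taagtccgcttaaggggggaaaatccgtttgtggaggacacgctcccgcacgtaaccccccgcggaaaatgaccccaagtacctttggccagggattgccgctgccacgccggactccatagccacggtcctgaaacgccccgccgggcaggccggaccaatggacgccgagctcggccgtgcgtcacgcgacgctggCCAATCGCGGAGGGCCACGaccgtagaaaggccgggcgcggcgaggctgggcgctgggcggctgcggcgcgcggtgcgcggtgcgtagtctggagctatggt
HERPUD1 promoter: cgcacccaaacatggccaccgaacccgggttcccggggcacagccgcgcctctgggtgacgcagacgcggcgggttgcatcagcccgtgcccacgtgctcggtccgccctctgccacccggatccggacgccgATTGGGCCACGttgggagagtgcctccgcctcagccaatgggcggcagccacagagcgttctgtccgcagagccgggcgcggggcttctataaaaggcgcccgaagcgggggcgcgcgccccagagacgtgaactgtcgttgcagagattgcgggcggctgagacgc

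The ERSE of HSPA5 lay 66 to 48 bases before the start, that of XBP1 52 to 34 bases before it, and the ERSE-II of HERPUD1 117 to 107 bases before it. In the other genes the elements were as follows, written on the strand of the gene with the fixed letters in capitals and the spacer in lower case, and an element that faces the other way starts with CGTGG.
HSP90B1 ERSE, upstream: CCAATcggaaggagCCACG
HSP90B1 ERSE, near the start: CGTGGtgcggcgcgATTGG
CALR ERSE: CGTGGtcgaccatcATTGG
CANX ERSE: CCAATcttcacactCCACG
CRELD2 ERSE: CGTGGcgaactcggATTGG
PDIA6 ERSE: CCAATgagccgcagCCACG
ERO1B ERSE: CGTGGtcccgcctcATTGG
HYOU1 ERSE-II, both copies: CGTGGtCCAAT
SDF2L1 ERSE-II: CGTGGaCCAAT

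**Figure D1:**
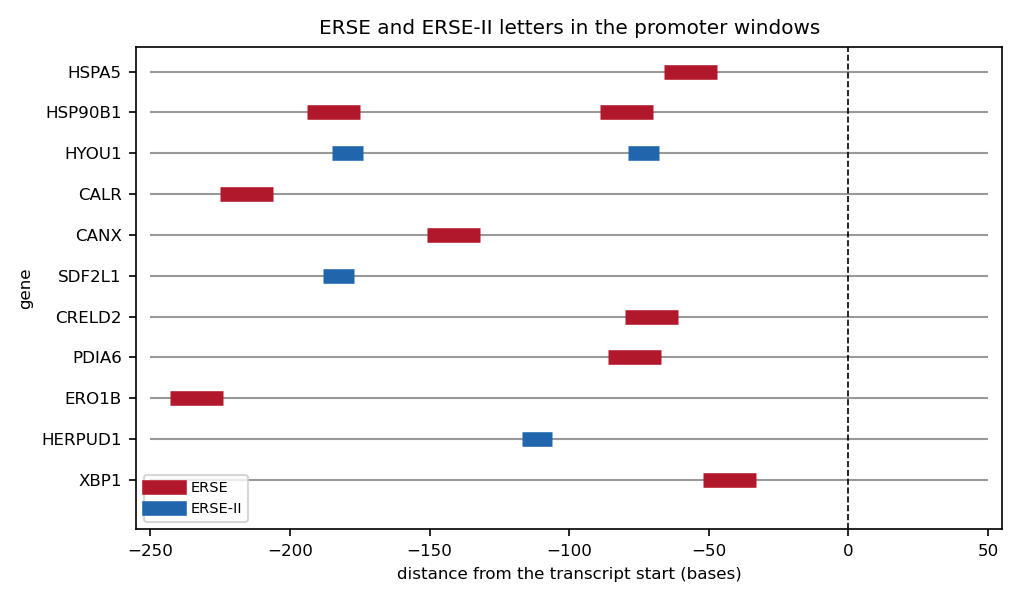
Position of ERSE (red) and ERSE-II (blue) letters in the promoter windows of the 11 genes that hold them, as distance from the annotated transcript start in bases (horizontal axis, 250 before to 50 after). HSP90B1 and HYOU1 each hold 2 elements; CANX, which has several annotated starts, is drawn from the first listed.

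Per unit of transcript length, the disulphide isomerase P4HB was the most abundant of these genes in control cells, at 611.5 ± 0.778 TPM (SD, n = 2), followed by HSP90B1 at 607.1 ± 22.1 TPM, which does not differ from it beyond the spread. CALR (477 ± 34.6 TPM), CANX (400.2 ± 50.1 TPM), PDIA6 (309 ± 26.8 TPM) and HSPA5 (269.8 ± 7.08 TPM) came next, and none of these 4 overlapped its neighbours. The sensors were low: ATF6 had 11.7 ± 0.799 TPM, EIF2AK3 8.48 ± 0.106 TPM and ERN1 7.70 ± 4.67 TPM. Over the 36 genes, 8 held at least 100 TPM in each of the 8 libraries and 7 stayed under 20 TPM in each. Their TPM summed to 3006 and 3091 in AXL shRNA libraries, against 4698 and 4316 in control shRNA libraries, and to 5090 and 4873 in TP-0903 libraries, against 4470 and 4395 in control libraries. The AXL shRNA sums were thus the lowest of the 8 and the TP-0903 sums the highest. On log2(TPM + 1) the median log2 fold change of all genes with AXL shRNA was -0.15, against -0.01 on counts. The sums therefore do not measure the change on counts.

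**Figure D2:**
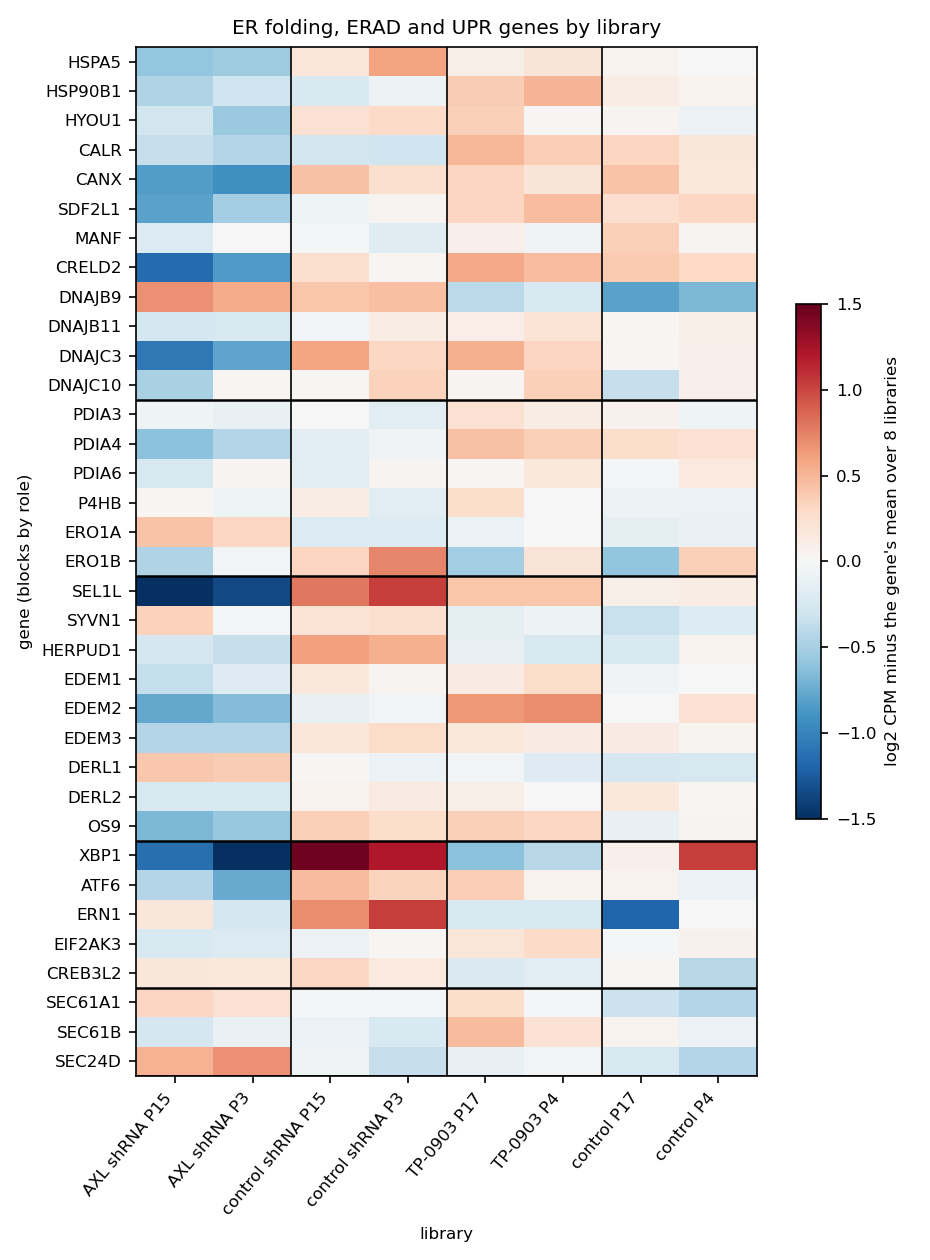
Level of each of the 35 tested genes (rows, in blocks by role) in each of the 8 libraries (columns), as log2 CPM minus the mean of that gene over the 8 libraries, with red above and blue below the mean. The AXL shRNA columns are blue for SEL1L, XBP1, DNAJC3, CRELD2 and CANX, and ERO1A, DERL1 and SEC24D are red there.

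With AXL shRNA, XBP1 and ATF6, 6 of 12 chaperones and cofactors and 7 of 9 tested ERAD genes fell, while ERO1A, DERL1 and SEC24D rose. Of 35 tested genes, 16 fell and 3 rose against control shRNA (edgeR, adjusted p under 0.05). Over all 17676 genes tested, 19% fell and 18.5% rose. The median log2 fold change was -0.37 for the 35 genes and -0.01 for all genes, and 29 of the 35 lay below 0. From bulk RNA it cannot be told whether fewer cells or less RNA per cell lay behind a lower level. The 2 AXL shRNA values did not overlap the 2 control shRNA values for any of the 19 genes called. The genes were called on these same values, so this adds no support to the calls. With 1 library left out fewer genes were called, among the 35 and over all genes alike. On deposited TPM, 19 fell and 1 rose: HSP90B1, CALR, DNAJB11 and PDIA3 passed there as lower, and DERL1, DERL2 and SEC24D did not pass. On that scale the median of all genes was -0.15 (log2(TPM + 1)), and 31.3% of all called genes rose there, against 49.4% on counts. Of all 17676 genes, 4404 fell and 2008 rose on log2(TPM + 1).

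**Figure D3:**
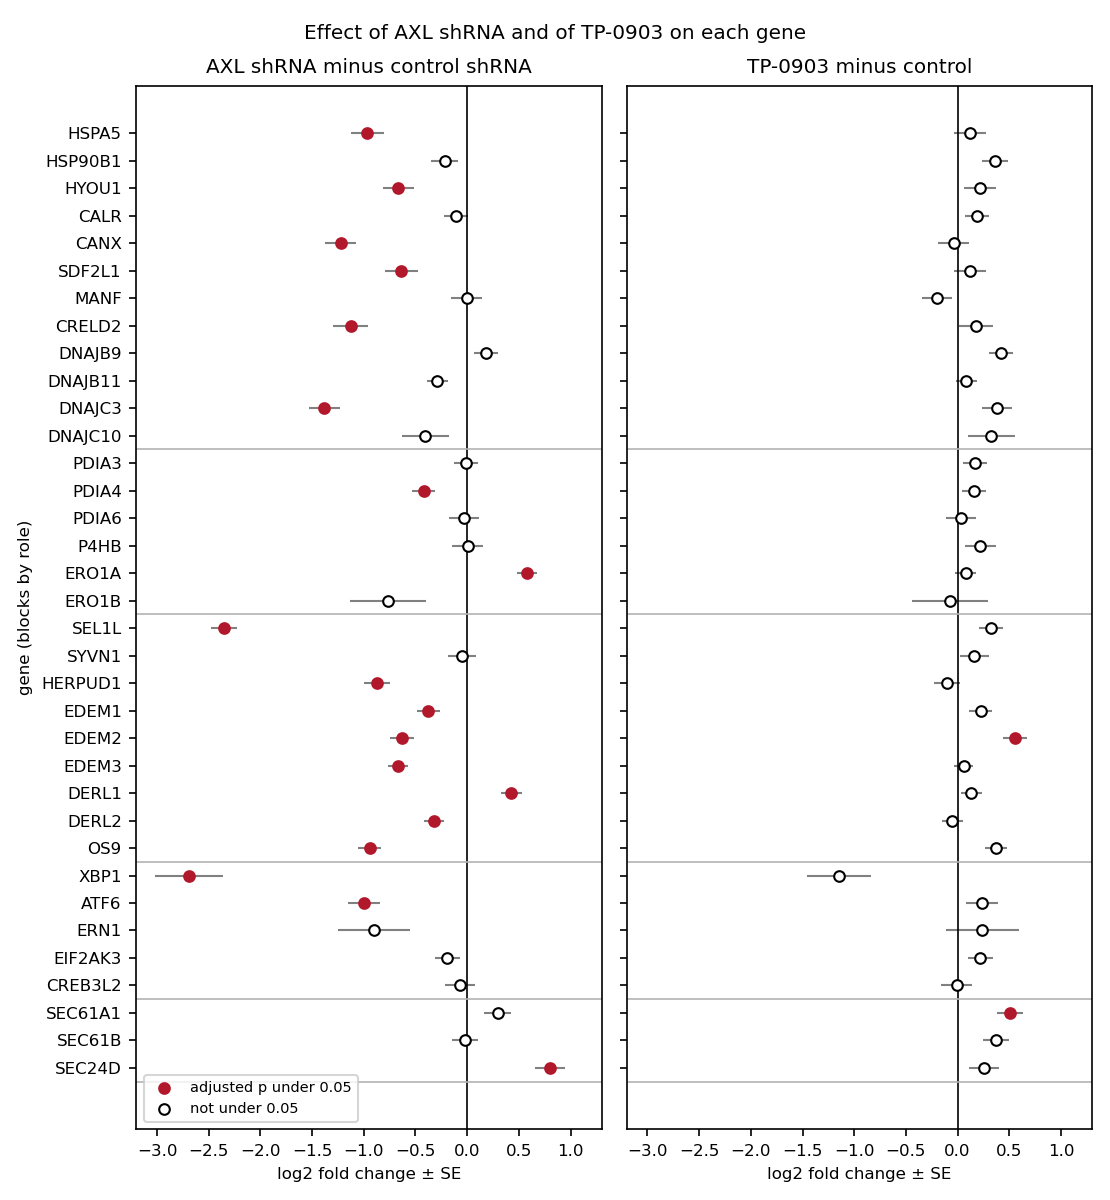
Log2 fold change with its SE for AXL shRNA minus control shRNA (left) and TP-0903 minus control (right), from the edgeR fit over 8 libraries, for 35 genes in blocks by role; filled points have an adjusted p under 0.05. XBP1 and SEL1L lie furthest left with AXL shRNA, and EDEM2 and SEC61A1 are the filled points with TP-0903.

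Among the chaperones and cofactors 6 of 12 fell and none rose with AXL shRNA (median log2 fold change -0.52). HSPA5 (chr9:125234853-125241330, GRCh38), which encodes BiP, the main ER chaperone, whose promoter is printed above, had 463 and 481 CPM with AXL shRNA, against 789 and 1056 CPM with control shRNA (log2 fold change -0.97, SE 0.16, edgeR adjusted p = 0.00368). Both AXL shRNA libraries lay below every other library of the series for HSPA5. CANX (chr5:179678628-179730925), the membrane lectin chaperone calnexin, had 499 and 471 CPM with AXL shRNA, against 1214 and 1051 CPM with control shRNA (log2 fold change -1.22, SE 0.15, edgeR adjusted p = 0.00126). Its soluble relative calreticulin, CALR, had 367 and 342 CPM with AXL shRNA, against 384 and 379 CPM with control shRNA. With a log2 fold change of -0.10 (edgeR adjusted p = 0.511) CALR did not pass the test on counts but did on TPM (log2 fold change -0.36, limma adjusted p = 0.0386). Whether the changes of the pair differ was not tested. DNAJC3 (chr13:95677139-95794989), the cochaperone P58IPK that also restrains PERK, had 25.4 and 30.7 CPM with AXL shRNA, against 80.3 and 65.9 CPM with control shRNA (log2 fold change -1.38, SE 0.15, edgeR adjusted p = 0.000904). Its AXL shRNA libraries stood at 31.6% and 46.6% of the control shRNA libraries of the same P number.

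CRELD2, an ER stress-induced protein, had 6.04 and 7.45 CPM with AXL shRNA, against 15.8 and 13.6 CPM with control shRNA (log2 fold change -1.13, SE 0.17, edgeR adjusted p = 0.00256), and the groups were well apart at this low level. HYOU1, a large chaperone that exchanges nucleotide on BiP, had 102 and 83.8 CPM with AXL shRNA, against 144 and 150.2 CPM with control shRNA (log2 fold change -0.67, SE 0.15, edgeR adjusted p = 0.013). SDF2L1, a partner of ER DnaJ proteins, had 7.91 and 9.7 CPM with AXL shRNA, against 13.2 and 14.2 CPM with control shRNA (log2 fold change -0.64, SE 0.16, edgeR adjusted p = 0.0177). The groups did not overlap for either gene, but the HYOU1 call was lost without AXL shRNA P3 (edgeR adjusted p = 0.0759) or control shRNA P3 (0.0547), and the SDF2L1 call without AXL shRNA P15 (0.0844) or control shRNA P3 (0.0756). GRP94 (HSP90B1), the ER member of the HSP90 family, had 697 and 777 CPM with AXL shRNA, against 812 and 904 CPM with control shRNA, with a log2 fold change of -0.22 (edgeR adjusted p = 0.214), or -0.47 on TPM (limma adjusted p = 0.0164). Among the DnaJ cofactors, DNAJB11 had 57.4 and 58.3 CPM with AXL shRNA, against 66.9 and 74.2 CPM with control shRNA (edgeR adjusted p = 0.0601, or 0.0362 with the replicate block; on TPM, limma adjusted p = 0.00421). DNAJC10, a reductase for ERAD clients, had 121 and 172 CPM with AXL shRNA, against 172 and 215 CPM with control shRNA (edgeR adjusted p = 0.2, or 0.00894 with the block). DNAJB9, a repressor of IRE1, had 54.6 and 49.8 CPM with AXL shRNA, against 45.5 and 46.4 CPM with control shRNA (edgeR adjusted p = 0.243). MANF, a secreted ER stress protein, had 32.2 and 36.8 CPM with AXL shRNA, against 36.6 and 32.7 CPM with control shRNA, and its groups overlapped.

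Among the 6 disulphide enzymes 1 fell and 1 rose. PDIA4, an isomerase with several thioredoxin domains, had 185 and 209 CPM with AXL shRNA, against 253 and 274 CPM with control shRNA (log2 fold change -0.42, SE 0.11, edgeR adjusted p = 0.0245). This call was lost without AXL shRNA P15 (edgeR adjusted p = 0.132) or control shRNA P3 (0.101). ERO1A (chr14:52639916-52695900), the oxidase that passes electrons from the isomerases to oxygen, rose and had 188 and 173 CPM with AXL shRNA, against 120.1 and 121 CPM with control shRNA (log2 fold change 0.58, SE 0.10, edgeR adjusted p = 0.00436). It was the gene that also rose on TPM (log2 fold change 0.52, limma adjusted p = 0.018). Its paralogue ERO1B had 9.45 and 12.6 CPM with AXL shRNA, against 16.2 and 21.4 CPM with control shRNA (log2 fold change -0.77, edgeR adjusted p = 0.139, or 0.00184 with the replicate block). For the isomerases PDIA3, PDIA6 and P4HB the log2 fold changes lay between -0.03 and 0.01, and none passed the test on counts. On TPM PDIA3 fell, with a log2 fold change of -0.35 (limma adjusted p = 0.0416).

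Of the 5 roles ERAD held the largest share of falls, 7 of 9 tested, beside 1 rise. The falls of EDEM1 and DERL2 are among these and were not stable, as given below. Whether the roles differ was not tested. SEL1L (chr14:81471549-81533861), the adaptor of the HRD1 ubiquitin ligase, had 48.9 and 54.8 CPM with AXL shRNA, against 242 and 287 CPM with control shRNA (log2 fold change -2.35, SE 0.13, edgeR adjusted p = 0.000282). The AXL shRNA libraries held 20.2% and 19.1% of the SEL1L level of the control shRNA libraries of the same P number, and they lay far below every other library. HRD1 itself, encoded by SYVN1, had 68 and 52.5 CPM with AXL shRNA, against 61.7 and 63.2 CPM with control shRNA, a log2 fold change of -0.05 (edgeR adjusted p = 0.783) with overlapping groups. OS9, a lectin that hands misfolded glycoproteins to SEL1L, had 119.5 and 129 CPM with AXL shRNA, against 246 and 232 CPM with control shRNA (log2 fold change -0.94, SE 0.11, edgeR adjusted p = 0.00112). HERPUD1, the scaffold whose ERSE-II is printed above, had 67.7 and 63 CPM with AXL shRNA, against 123 and 116 CPM with control shRNA (log2 fold change -0.87, SE 0.12, edgeR adjusted p = 0.00227). In the drug arm it had 73.5 and 67.9 CPM with TP-0903, against 68.4 and 83.3 CPM in control cells, so its control shRNA values stood above all the others.

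The mannosidase-like proteins EDEM1, EDEM2 and EDEM3, which mark glycoproteins for disposal, all fell. EDEM3 had 39 and 39.1 CPM with AXL shRNA, against 60 and 64.3 CPM with control shRNA (log2 fold change -0.67, SE 0.10, edgeR adjusted p = 0.00226). EDEM2 had 40 and 43.3 CPM with AXL shRNA, against 62.9 and 66.3 CPM with control shRNA (log2 fold change -0.63, SE 0.12, edgeR adjusted p = 0.00556). EDEM1 had 60.2 and 67.4 CPM with AXL shRNA, against 86.2 and 79.3 CPM with control shRNA (log2 fold change -0.37, SE 0.11, edgeR adjusted p = 0.0337). Its call was lost without either AXL shRNA, control shRNA or control library (edgeR adjusted p = 0.0505 to 0.158). The derlins, which form part of the channel through the membrane, went opposite ways. DERL1 rose and had 151 and 148 CPM with AXL shRNA, against 115 and 107 CPM with control shRNA (log2 fold change 0.43, SE 0.10, edgeR adjusted p = 0.0162). It did not pass on TPM (limma adjusted p = 0.229), nor without AXL shRNA P15 (0.0708), AXL shRNA P3 (0.0588) or control shRNA P3 (0.085). DERL2 had 45.3 and 45.2 CPM with AXL shRNA, against 55.1 and 57.9 CPM with control shRNA (log2 fold change -0.32, SE 0.10, edgeR adjusted p = 0.0407). This fall was lost without any 1 of the 8 libraries (edgeR adjusted p = 0.0573 to 0.149) and became a log2 fold change of 0.0877 with the deposited effective lengths as offsets. Those lengths were 739 and 703 bases in AXL shRNA libraries and 956 and 955 bases in control shRNA libraries. DERL3 had 0.0302 and 0.0243 CPM with AXL shRNA, against 0.123 and 0.18 CPM with control shRNA and was not tested.

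Among the sensors and factors 2 of 5 fell. XBP1 (chr22:28794555-28800597) had 24 and 17.2 CPM with AXL shRNA, against 145 and 121 CPM with control shRNA (log2 fold change -2.69, SE 0.32, edgeR adjusted p = 0.00125), or 16.6% and 14.2% of the control shRNA libraries of the same P number. Gene-level counts do not separate spliced from unspliced XBP1 mRNA. ATF6 (chr1:161766294-161964070), the sensor whose cut form joins XBP1 at ERSE letters, had 45 and 36.1 CPM with AXL shRNA, against 85 and 77.2 CPM with control shRNA (log2 fold change -0.9992, SE 0.16, edgeR adjusted p = 0.00318). For both genes the AXL shRNA libraries were the lowest of the 8. The IRE1 gene ERN1 had 46.6 and 35 CPM with AXL shRNA, against 67.2 and 85.1 CPM with control shRNA (log2 fold change -0.90, SE 0.35, edgeR adjusted p = 0.0798, or 0.0179 with the replicate block). The PERK gene EIF2AK3 had 20.3 and 20.7 CPM with AXL shRNA, against 22.5 and 24.4 CPM with control shRNA, with a log2 fold change of -0.19 (edgeR adjusted p = 0.239). CREB3L2, a membrane-bound factor of the secretory pathway, had 87.1 and 86 CPM with AXL shRNA, against 95.8 and 85.6 CPM with control shRNA, and its groups overlapped.

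In the translocon and the coat, SEC24D, a cargo-binding protein of COPII vesicles, rose and had 46.5 and 52 CPM with AXL shRNA, against 31.1 and 25.4 CPM with control shRNA (log2 fold change 0.80, SE 0.14, edgeR adjusted p = 0.00526). On TPM it had an adjusted p of 0.0525 by limma. The pore subunit SEC61A1 had 376 and 353 CPM with AXL shRNA, against 298 and 297 CPM with control shRNA (log2 fold change 0.29, edgeR adjusted p = 0.108, or 0.043 with the replicate block). The small subunit SEC61B had 44.8 and 49.8 CPM with AXL shRNA, against 50.4 and 45.7 CPM with control shRNA, with overlapping groups. With the block, 20 of the 35 genes fell and 4 rose, against 26.1% and 25.6% of all genes, and all 19 calls made without the block were among these 24.

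**Figure D4:**
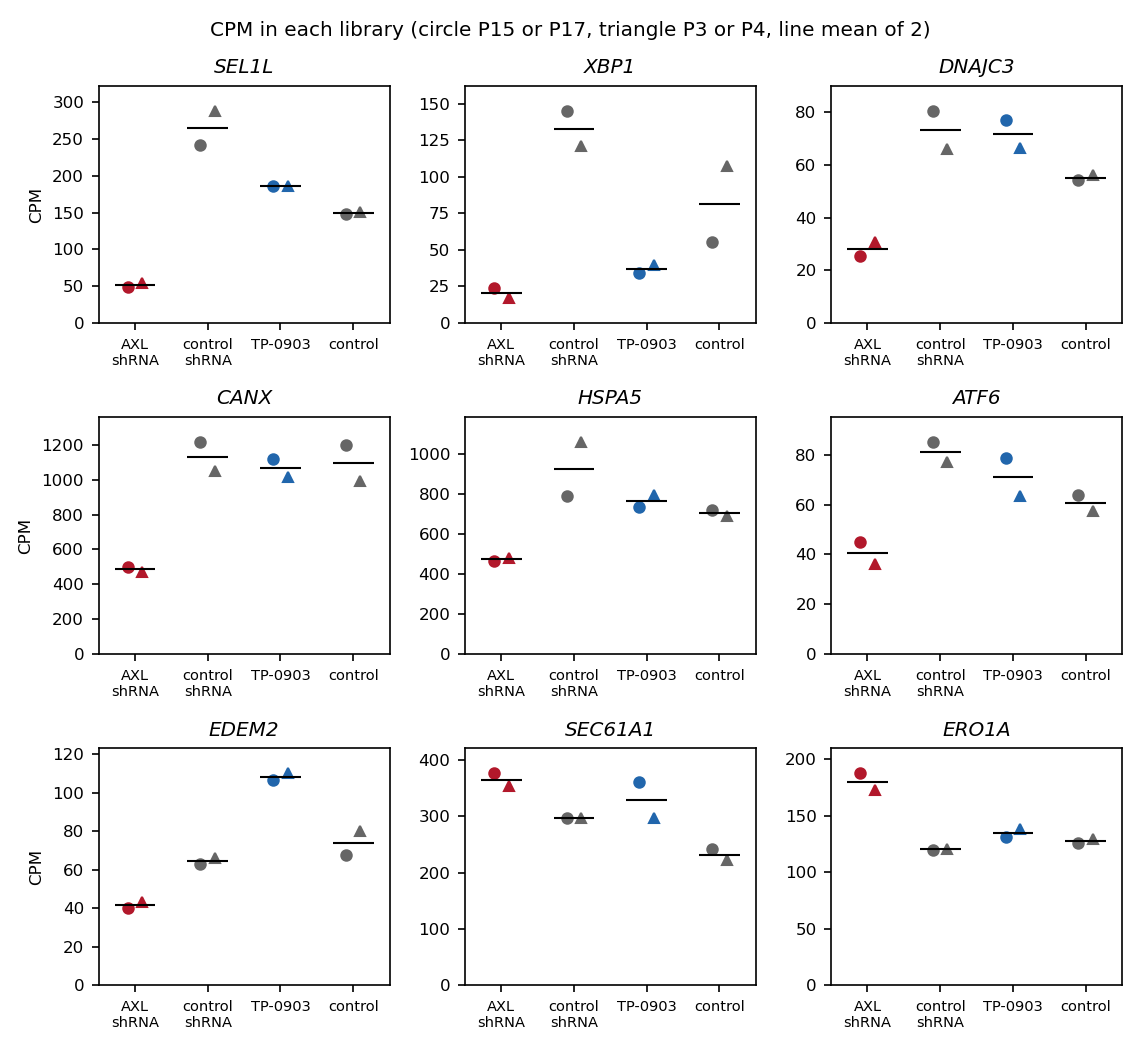
CPM of 9 genes in each library, with circles for P15 or P17, triangles for P3 or P4 and a line at the mean of 2 libraries; each vertical axis starts at 0. SEL1L, XBP1, DNAJC3, CANX, HSPA5 and ATF6 are lowest with AXL shRNA, EDEM2 is highest with TP-0903 and ERO1A is highest with AXL shRNA.

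Of the 11 genes with ERSE or ERSE-II letters, 7 fell and none rose with AXL shRNA (median log2 fold change -0.77), and of the 21 with a window and neither element 9 fell and 1 rose (median -0.32). Among all tested genes, 10 of 31 with such letters fell and 4 rose, against 21.1% and 20.3% of 11535 genes with neither. The 31 include the 11 genes above, and of the other 20, 3 fell and 4 rose. The median was -0.07 over the 31 and 0.27 over the 20. HSP90B1, CALR, PDIA6 and ERO1B carry the element and did not pass the test on counts without the block. HSP90B1 and CALR passed as lower on TPM and ERO1B with the replicate block, as given above. SEL1L, DNAJC3 and OS9 lack the element in this window and fell. The part of the element in these changes was not tested.

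A short word in the 3′ untranslated region also went with the AXL shRNA values. A search of all 16384 words of 7 letters over 10742 genes, made on these same data and adjusted for the length of the region, placed GAAGGAA first and TGAAGGA second among words whose genes were lower with AXL shRNA. In TP-0903 minus control the same words ranked 7555 and 4094. Joined as TGAAGGAA, they occur in 5 of the 35 tested genes, XBP1, SEL1L, DNAJC3, ATF6 and ERO1A, of which the first 4 fell and ERO1A rose. The sites, 30 bases each from GENCODE release 29 transcripts on GRCh38, follow with the word in capitals. They lie for XBP1 at chr22:28795386-28795415 on the minus strand, SEL1L at chr14:81473079-81473108 on the minus strand, DNAJC3 at chr13:95792338-95792367 on the plus strand, ATF6 at chr1:161960045-161960074 on the plus strand and ERO1A at chr14:52641274-52641303 on the minus strand.
XBP1 site: cattgtctcagTGAAGGAAgaacctgtaga
SEL1L site: agctggcattgTGAAGGAAcaccatggtag
DNAJC3 site: catttgaaagcTGAAGGAAttactttagat
ATF6 site: cgaaaagatagTGAAGGAAttaaatctttt
ERO1A site: gccaatcttttTGAAGGAAtattcttacct

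The median log2 fold change with AXL shRNA was -1.38 over these 5 genes, -0.30 over the 8 genes with a 7-letter part alone (3 fell, 1 rose) and -0.30 over the 22 with neither (9 fell, 1 rose). Among all genes with the 8-letter word, 42.8% of 757 fell and 9.78% rose, against 20.04% and 24.5% of 7791 genes with neither. The median region was 3161 bases long in genes with the word and 849 bases in genes with neither. In the 5 genes above it was 3959 bases, and in the 22 with neither 799.5 bases. In TP-0903 minus control the 5 genes had a median of 0.23, and none of them passed the test. In control shRNA minus control their median was 0.42, with 1 called higher and none lower. The 22 genes with neither had a median of -0.01 there, with 2 called higher and 1 lower. The word was found by a search of these data, so these counts are a description, and its part in the changes was not tested. HSPA5, CRELD2, OS9 and HERPUD1 fell without the word or its parts in the region used.

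**Figure D5:**
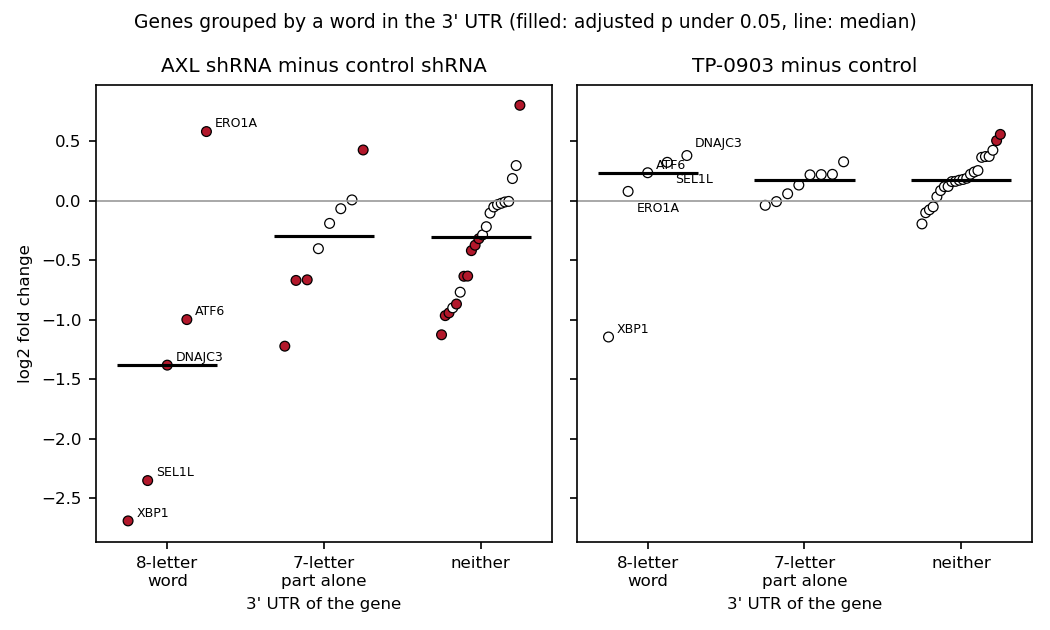
Log2 fold change of 35 genes with AXL shRNA (left) and TP-0903 (right), grouped by whether the 3′ untranslated region holds the 8-letter word, a 7-letter part alone or neither; filled points have an adjusted p under 0.05 and lines are medians. The 5 genes with the word have a median of -1.38 with AXL shRNA and 0.23 with TP-0903.

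Other genes of the pathway, given as lists by role, were also counted with AXL shRNA, and the shares over all genes are 19% lower and 18.5% higher, as above. Of 18 genes of the PERK and ATF4 arm 9 fell and none rose (median log2 fold change -0.87). Between control shRNA and control libraries 16 of these 18 lay above 0, 3 of them called higher and none lower, with a median of 0.81. Asparagine synthetase, ASNS, had 21.2 and 26.2 CPM with AXL shRNA, against 157 and 224 CPM with control shRNA (log2 fold change -3.004, edgeR adjusted p = 0.000909). The ATF4 partner CEBPG had 93 and 104 CPM with AXL shRNA, against 270.4 and 309.8 CPM with control shRNA (log2 fold change -1.56, edgeR adjusted p = 0.00161). Of 10 membrane-tethered factors and their proteases 4 fell, among them the proteases that cut ATF6. MBTPS2 had 43.3 and 36 CPM with AXL shRNA, against 87.9 and 93.4 CPM with control shRNA (log2 fold change -1.19, edgeR adjusted p = 0.0017). MBTPS1 had 79.9 and 82 CPM with AXL shRNA, against 185 and 154 CPM with control shRNA (log2 fold change -1.06, edgeR adjusted p = 0.00114).

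Of 26 other ERAD genes 11 fell and 3 rose (median -0.26). ERLIN2, a membrane scaffold, had 45 and 39.3 CPM with AXL shRNA, against 99.8 and 83.3 CPM with control shRNA (log2 fold change -1.12, edgeR adjusted p = 0.000989). UGGT2, a glycoprotein folding sensor, had 19.1 and 21.4 CPM with AXL shRNA, against 39.1 and 38.2 CPM with control shRNA (log2 fold change -0.93, edgeR adjusted p = 0.0015). On the cytosolic side of the membrane, the ATPase VCP that pulls substrates out had 923 and 863 CPM with AXL shRNA, against 492 and 445 CPM with control shRNA (log2 fold change 0.93, edgeR adjusted p = 0.0017). Its cofactor NPLOC4 had 329 and 343 CPM with AXL shRNA, against 218 and 209.7 CPM with control shRNA (log2 fold change 0.65, edgeR adjusted p = 0.00283). Of 14 tested other ER oxidoreductases 6 fell and 2 rose. ERP29 had 57.7 and 61.2 CPM with AXL shRNA, against 173 and 155 CPM with control shRNA (log2 fold change -1.46, edgeR adjusted p = 0.000383). The ER peroxidase GPX8 had 34.7 and 37.4 CPM with AXL shRNA, against 99.1 and 81.2 CPM with control shRNA (log2 fold change -1.32, edgeR adjusted p = 0.000687). TXNDC11 had 57 and 49.2 CPM with AXL shRNA, against 34.6 and 31.8 CPM with control shRNA (log2 fold change 0.68, edgeR adjusted p = 0.00632), and it rose. TXNDC5 had 361 and 309 CPM with AXL shRNA, against 225 and 206 CPM with control shRNA (log2 fold change 0.64, edgeR adjusted p = 0.00941). Its call was lost without AXL shRNA P15 (edgeR adjusted p = 0.0546) or control shRNA P3 (0.0554). On TPM neither passed, with log2 fold changes of 0.36 (limma adjusted p = 0.0641) for TXNDC11 and 0.37 (limma adjusted p = 0.068) for TXNDC5.

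Of 16 other ER chaperones and glycan trimming genes 6 fell and 1 rose. DNAJB14, a membrane DnaJ protein, had 21.7 and 19.3 CPM with AXL shRNA, against 57 and 53.5 CPM with control shRNA (log2 fold change -1.43, edgeR adjusted p = 0.000399). FKBP10, a collagen prolyl isomerase, had 101 and 84.7 CPM with AXL shRNA, against 193 and 184 CPM with control shRNA (log2 fold change -1.02, edgeR adjusted p = 0.00133). FKBP14 rose, at 52.9 and 52.7 CPM with AXL shRNA, against 38.8 and 37.9 CPM with control shRNA (log2 fold change 0.46, edgeR adjusted p = 0.0349). That call was lost without any 1 of the AXL shRNA or control shRNA libraries (edgeR adjusted p = 0.108 to 0.132). Of 28 translocon, signal peptidase and oligosaccharyltransferase genes 7 fell and 3 rose, and the median was 0.04. The translocon subunit SEC61G rose, at 90.8 and 98.6 CPM with AXL shRNA, against 45.7 and 45.4 CPM with control shRNA (log2 fold change 1.06, edgeR adjusted p = 0.000624). The subunits of the signal recognition particle receptor parted. SRPRB rose, at 101 and 87.8 CPM with AXL shRNA, against 62.9 and 61.3 CPM with control shRNA (log2 fold change 0.61, edgeR adjusted p = 0.00765), and SRPRA fell, at 64.1 and 52.1 CPM with AXL shRNA, against 106 and 105 CPM with control shRNA (log2 fold change -0.86, edgeR adjusted p = 0.00234). On TPM the calls of SRPRB and FKBP14 were lost, with log2 fold changes of 0.29 (limma adjusted p = 0.13) and 0.15 (limma adjusted p = 0.508). SRP9, of the particle itself, had 227 and 215 CPM with AXL shRNA, against 334 and 350.4 CPM with control shRNA (log2 fold change -0.63, edgeR adjusted p = 0.00356).

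Among vesicle coat genes and heat shock genes more rose than fell. Of 17 COPII and retrieval genes 8 rose and 2 fell (median 0.29). SEC24A, a cargo adaptor like SEC24D, had 108 and 100.4 CPM with AXL shRNA, against 47 and 37 CPM with control shRNA (log2 fold change 1.31, edgeR adjusted p = 0.00115). The GTPase SAR1A had 195 and 193 CPM with AXL shRNA, against 95.4 and 79.3 CPM with control shRNA (log2 fold change 1.15, edgeR adjusted p = 0.00127). The cargo receptors LMAN1 and TMED10 both fell. LMAN1 had 131 and 138 CPM with AXL shRNA, against 195 and 191 CPM with control shRNA (log2 fold change -0.52, edgeR adjusted p = 0.00545) and TMED10 258 and 238 CPM with AXL shRNA, against 332 and 324 CPM with control shRNA (log2 fold change -0.40, edgeR adjusted p = 0.0193). The TMED10 call was lost without AXL shRNA P3, control shRNA P15 or control shRNA P3 (edgeR adjusted p = 0.0548 to 0.11) and on TPM (limma adjusted p = 0.975), and its log2 fold change was 0.24 with effective lengths as offsets. Of 16 heat shock genes, most of them cytosolic with 2 mitochondrial (HSPD1 and HSPE1), 13 rose and 1 fell (median 0.84). Between control shRNA and control libraries 15 of these 16 lay below 0, 3 of them called lower and none higher, with a median of -0.62. HSPB1, a small heat shock protein, had 1526 and 1302 CPM with AXL shRNA, against 228 and 197 CPM with control shRNA (log2 fold change 2.73, edgeR adjusted p = 0.000468). The collagen chaperone SERPINH1, an ER protein driven by the heat shock factor, had 540.2 and 472 CPM with AXL shRNA, against 125 and 126 CPM with control shRNA (log2 fold change 2.01, edgeR adjusted p = 0.000449). HSP90AA1 fell, at 790.3 and 956 CPM with AXL shRNA, against 1408 and 1441 CPM with control shRNA (log2 fold change -0.71, edgeR adjusted p = 0.0255). That call was lost without AXL shRNA P15, control shRNA P15 or control shRNA P3 (edgeR adjusted p = 0.0706 to 0.123).

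With TP-0903 most of these genes lay a little above control, and few passed the test. Of 35 tested genes 2 rose and none fell (edgeR, adjusted p under 0.05), against 4.9% and 6.35% of all genes. The median log2 fold change was 0.18, against -0.02 over all genes, and 28 of the 35 lay above 0. Leaving out 1 library lowered the number of calls, among the 35 and over all genes alike. Without control P17 the call among the 35 was a fall of XBP1, with neither EDEM2 nor SEC61A1 called. With the replicate block 8 rose and 1 fell, against 12.9% and 13.4% of all genes, and both calls made without the block were among them. DESeq2 called 6 of the 35, 5 higher and 1 lower. Over all 17676 genes it called 1433 higher and 1468 lower.

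EDEM2 rose and had 107 and 110.1 CPM with TP-0903, against 67.4 and 79.9 CPM in control cells (log2 fold change 0.56, SE 0.11, edgeR adjusted p = 0.0238). Both TP-0903 libraries were above every other library of the series for EDEM2, and the call was lost without TP-0903 P17 (edgeR adjusted p = 0.123), TP-0903 P4 (0.0964) or control P17 (0.133). SEC61A1 had 360.3 and 296 CPM with TP-0903, against 241 and 222 CPM in control cells (log2 fold change 0.50, SE 0.13, edgeR adjusted p = 0.0469). Its call was lost when any 1 library other than TP-0903 P4 was left out (edgeR adjusted p = 0.0633 to 0.283). The groups did not overlap for either gene.

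XBP1 was the gene furthest below control with TP-0903. It had 34.3 and 39.4 CPM with TP-0903, against 55.2 and 108 CPM in control cells (log2 fold change -1.15, SE 0.31, edgeR adjusted p = 0.0566), or 62% and 36.6% of its level in control cells of equal P number. The control libraries were far apart, and the log2 fold change was -0.56 without control P4 (edgeR adjusted p = 0.227) and -1.54 without control P17 (0.0204). It passed with the replicate block (log2 fold change -1.07, edgeR adjusted p = 0.00241).

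Further genes passed with the replicate block alone, each higher with TP-0903. SEL1L had 186 and 186 CPM with TP-0903, against 148 and 150.2 CPM in control cells (log2 fold change 0.32, edgeR adjusted p = 0.129, or 0.0392 with the block). OS9 had 246 and 238 CPM with TP-0903, against 177 and 197 CPM in control cells (edgeR adjusted p = 0.0704, or 0.0353 with the block). HSP90B1 had 1241 and 1353 CPM with TP-0903, against 1026 and 990.0 CPM in control cells (edgeR adjusted p = 0.113, or 0.0469), and both of its TP-0903 libraries were the highest of the 8. For DNAJB9 the values were 25.7 and 29 CPM with TP-0903, against 19.5 and 21.4 CPM in control cells (edgeR adjusted p = 0.0605, or 0.0201). DNAJC10 had 175 and 217 CPM with TP-0903, against 133 and 179 CPM in control cells (edgeR adjusted p = 0.396, or 0.0431), with overlapping groups that parted within each P number. SEC61B had 74.4 and 62.3 CPM with TP-0903, against 55.3 and 50.4 CPM in control cells (edgeR adjusted p = 0.109, or 0.0379).

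HSPA5, the usual readout of ER stress, had 735 and 795 CPM with TP-0903, against 720.3 and 690.0 CPM in control cells, a log2 fold change of 0.12 (edgeR adjusted p = 0.676). CANX had 1116 and 1018 CPM with TP-0903, against 1199 and 993 CPM in control cells and DNAJC3 76.9 and 66.5 CPM with TP-0903, against 54.2 and 56.1 CPM in control cells, with adjusted p-values of 0.895 and 0.141. The sensors ATF6 (78.9 and 63.6 CPM with TP-0903, against 63.7 and 57.5 CPM in control cells) and EIF2AK3 (27.1 and 29.1 CPM with TP-0903, against 23.3 and 24.9 CPM in control cells) had log2 fold changes of 0.23 and 0.22, neither past the test. ERN1 had 35.5 and 35.5 CPM with TP-0903, against 18.3 and 41.7 CPM in control cells, and its low value in control P17 lay apart from its partner. The other tested genes had log2 fold changes between -0.20 for MANF and 0.25 for SEC24D.

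Over the 8 further lists, 4 of 145 tested genes rose and 9 fell with TP-0903 (2.76% and 6.21%), against 4.9% and 6.35% of all genes. In the PERK and ATF4 arm 2 of 18 genes fell and none rose (median -0.47). ASNS had 21.5 and 28.9 CPM with TP-0903, against 76 and 135 CPM in control cells (log2 fold change -2.07, edgeR adjusted p = 0.00784), a call lost without TP-0903 P17 (edgeR adjusted p = 0.0741). ATF4 had 125 and 139.7 CPM with TP-0903, against 209 and 284 CPM in control cells (log2 fold change -0.90, edgeR adjusted p = 0.0151), a call lost without TP-0903 P17, TP-0903 P4 or control P4 (edgeR adjusted p = 0.058 to 0.126). NFYA, a subunit of the factor that binds the CCAAT letters of ERSE, had 22.9 and 21.9 CPM with TP-0903, against 37.9 and 33.6 CPM in control cells (log2 fold change -0.67, edgeR adjusted p = 0.011). CREB3L4, a membrane-tethered factor, had 3.33 and 4.28 CPM with TP-0903, against 7.87 and 9.15 CPM in control cells (log2 fold change -1.16, edgeR adjusted p = 0.0241). Each call was lost without TP-0903 P17, TP-0903 P4 or control P17, and that of CREB3L4 without control P4 as well (edgeR adjusted p = 0.0687 to 0.085 for NFYA and 0.0581 to 0.176 for CREB3L4). ERP29 had 83.8 and 89.9 CPM with TP-0903, against 152 and 157 CPM in control cells (log2 fold change -0.83, edgeR adjusted p = 0.0039). This was lost without TP-0903 P17 (0.05001). GPX8 had 44.4 and 50.2 CPM with TP-0903, against 70.5 and 73.7 CPM in control cells (log2 fold change -0.61, edgeR adjusted p = 0.0264), and was lost without any 1 TP-0903 or control library (0.0664 to 0.193).

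FOXRED2, an ERAD flavoprotein, was the 1 of 26 other ERAD genes that passed, at 34.4 and 32.8 CPM with TP-0903, against 53.1 and 46.5 CPM in control cells (log2 fold change -0.57, edgeR adjusted p = 0.0199). It too was lost without any 1 TP-0903 or control library (edgeR adjusted p = 0.0517 to 0.138). SEC31A, of the outer COPII coat, rose, at 172 and 159.6 CPM with TP-0903, against 110.0 and 111 CPM in control cells (log2 fold change 0.59, edgeR adjusted p = 0.0108). The call was lost without TP-0903 P17, control P17 or control P4 (0.057 to 0.101). HSPB1 rose, at 761 and 542 CPM with TP-0903, against 360.5 and 269 CPM in control cells (log2 fold change 1.05, edgeR adjusted p = 0.0237), lost without the same libraries (0.0559 to 0.149). Its cochaperone partner BAG3 rose, at 160.1 and 149 CPM with TP-0903, against 111 and 81 CPM in control cells (log2 fold change 0.69, edgeR adjusted p = 0.0327), lost without AXL shRNA P15, AXL shRNA P3, TP-0903 P17, TP-0903 P4 or control P4 (0.0541 to 0.187). Further calls came close to the threshold. FKBP14 rose, at 46.9 and 38.2 CPM with TP-0903, against 31.7 and 26.5 CPM in control cells (log2 fold change 0.55, edgeR adjusted p = 0.0464). GANAB, a glucosidase that trims glycans, fell, at 372 and 356 CPM with TP-0903, against 552 and 474 CPM in control cells (log2 fold change -0.50, edgeR adjusted p = 0.0496). SPCS2, of the signal peptidase, fell, at 82.8 and 78.9 CPM with TP-0903, against 115 and 105 CPM in control cells (log2 fold change -0.44, edgeR adjusted p = 0.0297). FKBP14 was lost without any 1 library but TP-0903 P4 (0.0665 to 0.282), GANAB without any 1 of the 8 (0.0681 to 0.248) and SPCS2 without any 1 but control shRNA P3 (0.0523 to 0.173).

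The hairpin and the drug are both directed at AXL, so their effects on the same genes were compared, each against its own control. The test of the difference itself called 15 of 35 genes, 14 lower and 1 higher with AXL shRNA than with TP-0903, against 9.82% and 10.8% of all genes. SEL1L (difference -2.67, SE 0.17, edgeR adjusted p = 0.000851), OS9 (-1.31, SE 0.15, edgeR adjusted p = 0.00238) and DNAJC3 (-1.76, SE 0.21, edgeR adjusted p = 0.00248) had the smallest p-values. XBP1, below 0 in both comparisons, differed by -1.54 (edgeR adjusted p = 0.0445), a call lost without any 1 library other than control P4 (edgeR adjusted p = 0.0575 to 0.12). With the replicate block 20 genes were called, against 18.4% of all genes higher and 18.6% lower, and all 15 calls were among them; HSP90B1, SDF2L1, DNAJC10, ERO1B and ERN1 passed with the block alone (edgeR adjusted p = 0.00459 to 0.0287).

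The controls differed for a few of these genes, which bears on where each comparison starts from. Between control shRNA and control libraries 3 of the 35 genes were higher and 1 lower (edgeR, adjusted p under 0.05), against 3.06% and 6.09% of all genes, and the median log2 fold change was 0.14. DNAJB9 had 45.5 and 46.4 CPM with control shRNA, against 19.5 and 21.4 CPM in control cells (log2 fold change 1.17, SE 0.12, edgeR adjusted p = 0.00185). SEL1L had 242 and 287 CPM with control shRNA, against 148 and 150.2 CPM in control cells (log2 fold change 0.83, SE 0.12, edgeR adjusted p = 0.0084). HERPUD1 had 123 and 116 CPM with control shRNA, against 68.4 and 83.3 CPM in control cells (log2 fold change 0.65, SE 0.12, edgeR adjusted p = 0.0236). CALR had 384 and 379 CPM with control shRNA, against 579 and 520.3 CPM in control cells (log2 fold change -0.53, SE 0.12, edgeR adjusted p = 0.0362). This CALR call was lost when any 1 library was left out. XBP1 had 145 and 121 CPM with control shRNA, against 55.2 and 108 CPM in control cells and ERN1 67.2 and 85.1 CPM with control shRNA, against 18.3 and 41.7 CPM in control cells (edgeR adjusted p = 0.184 and 0.0574). Hairpin and P number cannot be told apart here, since the P numbers differ between these groups. For SEL1L and XBP1 the AXL shRNA libraries lay below the control libraries as well as below the control shRNA libraries, whereas for HERPUD1 the values were 67.7 and 63 CPM with AXL shRNA and 68.4 and 83.3 CPM in control cells.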

How the data were processed

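RNA from 8 A549 libraries was sequenced after Nextera XT preparation, for which no strand is stated. Per the submitters' processing notes, reads were aligned to GRCh38 with STAR (2.5.3a) and quantified with RSEM (version not given in the sources used here). RSEM's deposited values include expected counts, which estimate the reads of each gene and carry no normalization. The authors' TPM are scaled for length and depth within a library, the deposited FPKM were not tested, and the deposited effective lengths were used as offsets in 1 alternative. Expected counts were rounded, filtered with filterByExpr and scaled by TMM, and all 8 libraries entered a single quasi-likelihood fit in edgeR (4.0.16) with 1 term per group. Contrasts were two-sided, with Benjamini-Hochberg adjustment over 17676 genes and a threshold of 0.05. The SE is the size of the log2 fold change divided by the square root of F. The fit and its alternatives were tested on simulated data.

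The 36 genes were given by symbol, and all are named. From each further list up to 2 called genes per direction, by smallest p, are named. The genes and lists were chosen with earlier results of these data known. Alternatives were other scaling, no filter, DESeq2 (1.42.0), limma-voom and limma (3.58.1) on log2(TPM + 1) and log2(TPM + 0.1), effective lengths, the P number as a replicate block, 4 libraries alone and each library left out; those for control shRNA minus control and for the further named genes were added after the data were seen. To check whether the P number pairs libraries, deviations from the group means were correlated across genes: r was 0.559 between AXL shRNA and control shRNA and 0.626 between TP-0903 and control, against 0.177 to 0.38 between groups that share no number. The numbers were taken to pair the libraries in the replicate block and in the percentages within a P number. The main fit has no term for this pairing.

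Positions and 3′ untranslated regions came from GENCODE release 29, which matched all 36 IDs, with 1 protein-coding transcript per gene, a region of at least 50 bases and, for the word search, a mean of at least 5 CPM and 50 genes per word. Promoter windows came from RefSeq. Near-identical copies could share reads, and without strand, reads from an antisense partner cannot be told apart.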

Additional observations from a re-analysis of the deposited data

Results flagged for a closer look

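The effect of AXL shRNA and that of TP-0903, each against its own control, differed by edgeR's test of the difference in 15 genes. Values are the AXL shRNA effect minus the TP-0903 effect on the log2 scale. In 8 genes the difference passed the threshold without each of the libraries in turn: -1.18 for CANX (adjusted p = 0.00896), -1.30 for CRELD2 (adjusted p = 0.00941), -1.76 for DNAJC3 (adjusted p = 0.00248), -2.67 for SEL1L (adjusted p = 0.000851), -1.19 for EDEM2 (adjusted p = 0.00401), -0.73 for EDEM3 (adjusted p = 0.0109), -1.31 for OS9 (adjusted p = 0.00238) and -1.23 for ATF6 (adjusted p = 0.00941). The other 7 lost the call without at least 1 library: -1.08 for HSPA5 (adjusted p = 0.0151), -0.88 for HYOU1 (adjusted p = 0.0273), -0.58 for PDIA4 (adjusted p = 0.0422), 0.50 for ERO1A (adjusted p = 0.0425), -0.77 for HERPUD1 (adjusted p = 0.0222), -0.60 for EDEM1 (adjusted p = 0.0355) and -1.54 for XBP1 (adjusted p = 0.0445). Without 1 library HSPA5 was lost for AXL shRNA P15, TP-0903 P4, control P17 or control P4 (adjusted p = 0.0506 to 0.0532), HYOU1 for 6 libraries (0.0589 to 0.084) and HERPUD1 for 6 (0.0502 to 0.0772). PDIA4 (0.0589 to 0.128), ERO1A (0.0683 to 0.148) and EDEM1 (0.0544 to 0.107) were lost without any 1 of the 8, and XBP1 without any 1 but control P4. EDEM2 is the gene with a call in opposite directions, lower with AXL shRNA and higher with TP-0903. Its TP-0903 call was lost without TP-0903 P17, TP-0903 P4 or control P17. It was also lost with 4 libraries alone (edgeR adjusted p = 0.0524).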

How the results depend on the processing

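Of the 19 calls with AXL shRNA 13 held without each library and 12 in all 17 alternatives (HSPA5, CANX, CRELD2, DNAJC3, ERO1A, SEL1L, HERPUD1, EDEM2, EDEM3, OS9, XBP1 and ATF6); of 15 differences 8 held in all, and of 2 calls with TP-0903 none. For TP-0903, genes called were 1989 in all, 3515 with no filter, 4647 with the replicate block and 489 to 1727 with 1 library left out. Calls among the 35 were 2, against 6 with DESeq2, 9 with the replicate block, 1 on either TPM scale or with effective lengths, 0 with 4 libraries alone and 0 to 1 with 1 library left out. For AXL shRNA the count over all genes was 6627, and 4408 to 6105 with 1 library left out. The difference had 3645 genes called, 6530 with the replicate block and 1855 to 2670 with 1 library left out, and 15 of the 35, against 8 to 11 with 1 left out. Control shRNA minus control had 1618, with no filter 3352, by DESeq2 2654 and with 1 left out 343 to 1277; its 4 calls were 7 with no filter or DESeq2 and 1 to 5 with 1 left out. With AXL shRNA, 4 libraries alone ended the calls of SDF2L1, PDIA4 and EDEM1 (adjusted p = 0.0651 to 0.0713), and other scaling, no filter or DESeq2 that of DERL2 (0.0615 to 0.123). With TP-0903, at least 1 alternative other than leaving out a library ended those of EDEM2, SEC61A1, FOXRED2, GPX8, FKBP14, GANAB, SPCS2, HSPB1 and BAG3 (0.0503 to 0.0865). The replicate block made 5, 7 and 5 further calls among the 35 for AXL shRNA, TP-0903 and the difference and lost none.

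Signs changed as follows on the log2 scale, for genes not called in the comparison named, except DERL2 and TMED10 with AXL shRNA; the cause was not tested. AXL shRNA, effective lengths: DERL2 0.0877, TMED10 0.24. RLE scaling and DESeq2: MANF 0.0219 and 0.0221, PDIA3 0.0172 and 0.0171, SEC61B 0.00586 and 0.00601. TPM with pseudocount 1 and 0.1: DNAJB9 -0.22 and -0.22, P4HB -0.21 and -0.21, and with no filter -0.0166. With 1 library left out: CREB3L2 -0.15 to 0.00439, MANF -0.11 to 0.084, P4HB -0.14 to 0.15, PDIA3 -0.11 to 0.0723, PDIA6 -0.18 to 0.0957, SEC61B -0.10 to 0.0479, SYVN1 -0.25 to 0.12. TP-0903, CREB3L2: 0.012 (RLE), 0.0121 (DESeq2), 0.00807 (voom), 0.0253 (TPM + 1), 0.0277 (TPM + 0.1), 0.0463 (effective lengths), 0.00681 (replicate block), 0.0137 (4 libraries); with 1 left out CREB3L2 -0.19 to 0.23, AXL -0.0636 to 1.06, CANX -0.15 to 0.11, DERL2 -0.10 to 0.0215, ERN1 -0.22 to 0.97, ERO1B -0.47 to 0.49, HERPUD1 -0.23 to 0.0669, PDIA6 -0.0392 to 0.14. For the difference, TPM with pseudocount 1 and 0.1: DERL1 -0.13 and -0.14, MANF -0.12 and -0.12; effective lengths, DERL2 0.10; with 1 left out, CREB3L2 -0.30 to 0.11 and PDIA6 -0.21 to 0.0639. DERL3, with 0 to 17 counts a library, was too low to test.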

Other observations

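As sums of TPM, the PERK and ATF4 genes held 893 and 961 in AXL shRNA libraries, against 2024 and 2098 in control shRNA libraries, and 868 and 1014 in TP-0903 libraries, against 1096 and 1847 in control libraries. The 16 heat shock genes, which include the ER chaperone SERPINH1, held 9711 and 9124 TPM in AXL shRNA libraries, against 4609 and 4838 TPM in control shRNA libraries, and 7033 and 7044 TPM in TP-0903 libraries, against 8426 and 5948 TPM in control libraries.

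Within control cells, control P4 held more XBP1 than control P17 (108 and 55.2 CPM) and more ERN1 (41.7 and 18.3 CPM), while HSPA5 was nearly level (690.0 and 720.3 CPM).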
